A study of Mus musculus with 9 samples.

Results

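This account covers 10 transcription factor genes that are known from mesenchymal cells and from the epithelial-to-mesenchymal transition (EMT). They are Twist1, Twist2, Snai1, Snai2, Zeb1, Zeb2, Prrx1, Runx1, Runx2 and Foxc1. The members were chosen by name, with earlier results of these data known, so their counts beside shares of all tested genes are a description. The same holds for the lists of other genes below. All 10 were found among the 25239 genes of the deposited table. All 10 also passed the filter of a mean of at least 1 FPKM, as 12611 genes did. FPKM is the number of sequenced fragments of a gene scaled to its length in kilobases and to the depth of the library. The samples are primary astrocytes, the glial cells of the cerebral cortex, grown in serum from mouse pups at postnatal day 4. No strain, genotype or sex is named in the labels used here. The 3 libraries of the control group carry only that name, with no harvest time. The other two groups were exposed to 200 µM hydrogen peroxide (H2O2; the labels write the unit as µm), an oxidant, for 3 h and washed. One was harvested 24 h after washing (day 1, 3 libraries) and the other 72 h after washing (day 3, 3 libraries). All groups share the age and the culture medium, and no label ties a replicate to its own culture. The p-values therefore rest on spread among libraries that may be only technical.

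EMT is the program by which epithelial cells lose their junctions and gain motility and matrix production, and its factors also act in mesenchymal, neural crest and wound-healing cells. SNAIL proteins (Snai1, Snai2) and ZEB proteins (Zeb1, Zeb2) are zinc finger repressors that bind E-boxes and recruit corepressors to epithelial genes such as Cdh1. TWIST proteins (Twist1, Twist2) are basic helix-loop-helix factors that work as dimers with E proteins, and ID proteins take E proteins away from such dimers. Prrx1 is a homeobox factor of limb and head mesenchyme, Runx1 is best known from blood formation, Runx2 from bone formation, and Foxc1 is a forkhead factor of the meninges, vessel wall and eye. In the brain Zeb2 and Runx1 are also known from microglia, Zeb1 from neural progenitors, and Foxc1 from meningeal fibroblasts and pericytes.

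RefSeq start-site windows (GRCm38.p6) ran from 250 bases before to 50 bases after the start. Those of 8 of the 10 genes were searched, 12 windows in all. No window of Snai2 or Zeb1 was searched. Printed are 3 windows that hold letters known to be bound by members of the same 10, picked after the motif search: the window of Snai1, which rose on day 1, and those of the paralogs Runx1 and Runx2. Each reads 5′ to 3′ on the strand of its gene. In the Snai1 window the capitals mark CACCTG, the complement of the E-box CAGGTG that SNAIL and ZEB proteins bind, 126 bases before the start (chr2:167537945-167538244, plus strand). In the Runx1 window (chr16:92826025-92826324, minus strand, the distal of 2 start sites listed) and the Runx2 window (chr17:44814578-44814877, minus strand) the capitals mark the RUNX motif ACCACA.
Snai1: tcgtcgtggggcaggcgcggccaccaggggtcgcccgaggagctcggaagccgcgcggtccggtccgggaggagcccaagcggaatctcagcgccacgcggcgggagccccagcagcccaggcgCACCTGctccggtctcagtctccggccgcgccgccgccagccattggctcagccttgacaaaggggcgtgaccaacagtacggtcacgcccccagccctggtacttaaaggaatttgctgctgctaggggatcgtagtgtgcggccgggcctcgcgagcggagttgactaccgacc
Runx1: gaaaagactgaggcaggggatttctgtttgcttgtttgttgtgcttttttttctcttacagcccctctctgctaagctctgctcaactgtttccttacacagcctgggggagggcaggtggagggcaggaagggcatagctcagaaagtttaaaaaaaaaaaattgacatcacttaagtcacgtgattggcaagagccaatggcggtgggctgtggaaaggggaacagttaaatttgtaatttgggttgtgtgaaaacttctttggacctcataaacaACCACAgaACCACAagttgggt
Runx2: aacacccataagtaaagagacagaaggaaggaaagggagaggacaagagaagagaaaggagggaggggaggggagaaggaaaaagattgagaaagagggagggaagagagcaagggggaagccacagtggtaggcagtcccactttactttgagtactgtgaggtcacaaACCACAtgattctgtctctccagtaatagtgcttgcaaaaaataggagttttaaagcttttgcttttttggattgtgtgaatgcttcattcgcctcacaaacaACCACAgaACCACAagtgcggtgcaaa

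The Runx1 and Runx2 windows share an identical run of 22 bases just after the start, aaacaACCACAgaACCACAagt, from base 24 of the Runx1 transcript and base 19 of the Runx2 transcript. It holds ACCACA at 2 places that are 2 bases apart, and this spaced pair, searched on both strands, is in 7 of 32851 mouse windows (0.0213%). Another ACCACA of the Runx2 window begins 80 bases before the start, and the Foxc1 window holds 1 RUNX match. Single motifs were common. ACCACA or its complement TGTGGT is in 16.8% of windows and CAGGTG or CACCTG in 20.2%, and the Runx1 window also holds CAGGTG, 136 bases before the start. The general E-box CANNTG, which contains CAGGTG, is in 72.3% of windows. Among the members' windows searched, which include none of Snai2 or Zeb1, it was found in those of Snai1, Runx1 and Runx2. A match is a description of these letters and not evidence of binding.

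The 9 libraries held 23032594 to 38414668 reads, as worked out from the FPKM. Rn45s, which encodes the precursor of ribosomal RNA, took 9.41% to 11.9% of the reads in control, 7.67% to 9.36% on day 1 and 9.15% to 11.1% on day 3, so control and day 1 did not overlap. Its part in the results was not tested. The labelled cell type was checked on 10 astrocyte markers, all above 1 FPKM in mean, with a summed level of 2799 to 2868 FPKM in control, led by Gfap at 1493 ± 33.7 FPKM (SD, n = 3).

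Foxc1 and Zeb1 were the most abundant of the 10 genes in each group, and Twist2 and Runx2 the least abundant. In control the mean levels (FPKM, n = 3) ran from Foxc1 at 25.3 ± 1.52 and Zeb1 at 23.3 ± 0.190 through Prrx1 at 10.2 ± 0.203, Zeb2 at 8.24 ± 0.215 and Twist1 at 8.08 ± 0.367 to Snai1 at 4.40 ± 0.242. Runx1 (2.88 ± 0.238), Snai2 (2.6 ± 0.259), Runx2 (2.02 ± 0.177) and Twist2 (1.45 ± 0.134) were lower. The neighbours Zeb2 and Twist1, and Runx1 and Snai2, overlapped between libraries in control, while the other neighbours were apart. Foxc1 stood at the 78.9th percentile of tested genes in control and Twist2 at the 4.24th. On day 1 Snai1 moved up beside Zeb2 (8.29 against 8.14 FPKM, overlapping). The order rests on the gene length behind each FPKM, which was 1335 bases for Twist2 and 11707 for Zeb2. The reads behind a value ranged from 60 to 117 per library for Twist2, a counting error of 9.2% to 12.9%, and from 3168 to 5487 for Zeb1.

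**Figure D1:**
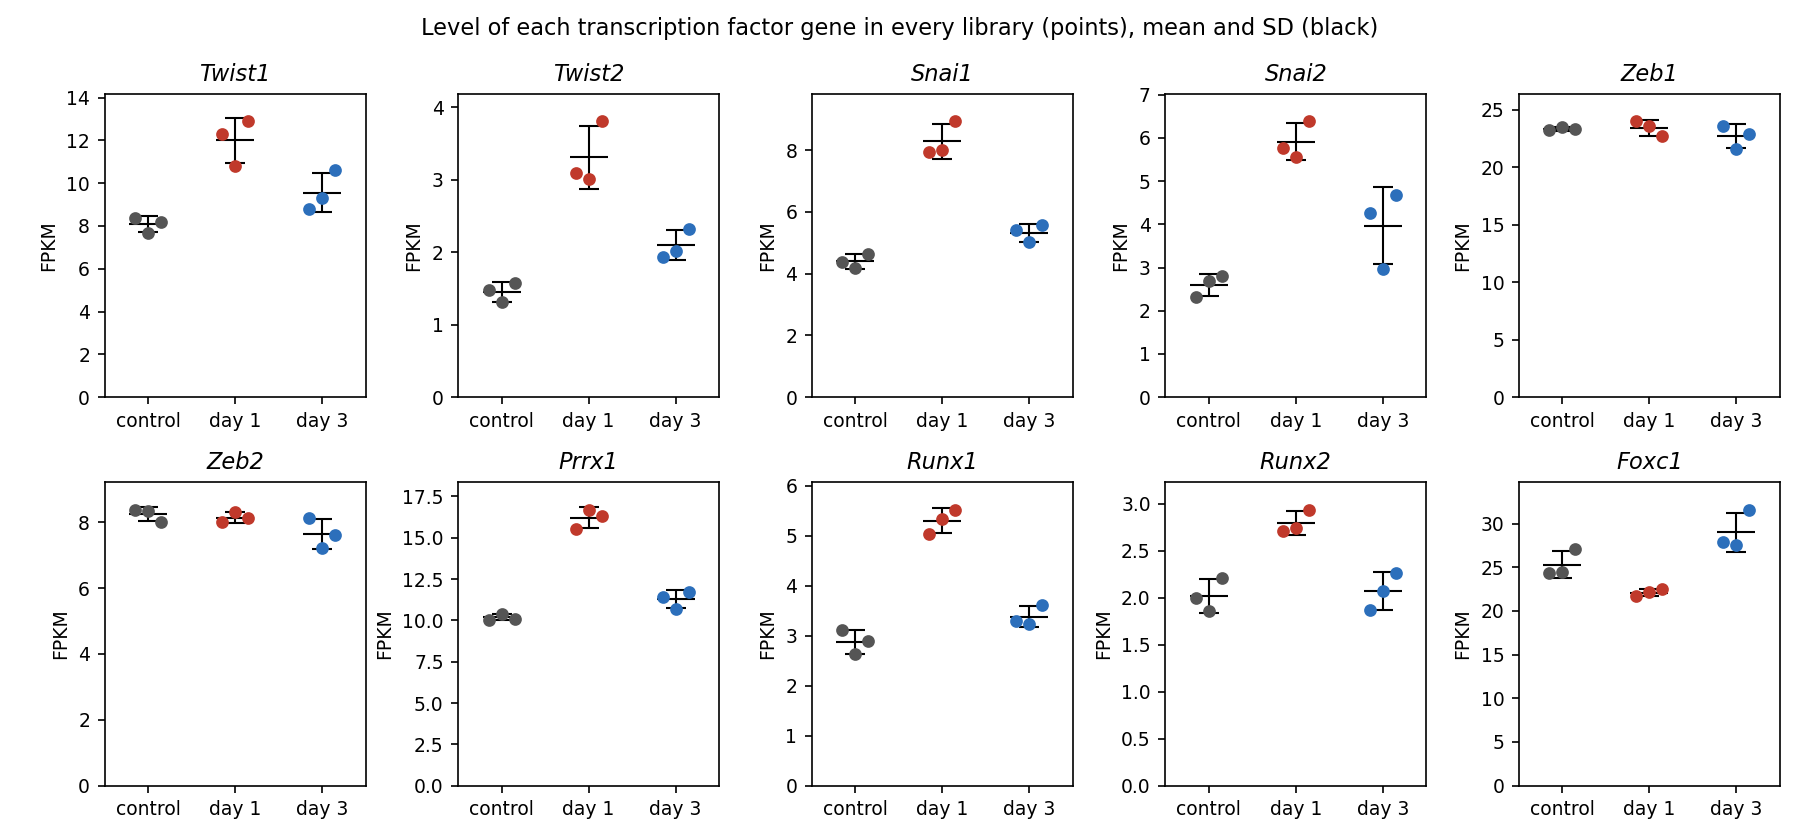
FPKM (vertical axis, starting at 0) of each of the 10 genes in the 3 control, 3 day 1 and 3 day 3 libraries; points are libraries, black marks the mean and SD. The day 1 libraries lie above all control libraries for 7 genes, overlap with control for Zeb1 and Zeb2, and lie below control for Foxc1.

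On day 1, 7 of the 10 genes were higher than in control, 1 was lower and 2 did not pass, in a comparison in which 31.1% of all tested genes were called higher and 31.1% lower (limma, Benjamini-Hochberg adjusted p under 0.05). The 7 were both TWIST genes, both SNAIL genes, Prrx1 and both RUNX genes. The groups did not overlap for 8 of the 10 genes, as was the case for 66.1% of all tested genes. The median log2 fold change was 0.65 over the 10 genes and -0.0014 over all tested genes. In bulk RNA, fewer cells of a type and less RNA per cell cannot be told apart.

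The SNAIL genes rose strongly on day 1. Snai1 (chr 2, 167538195 to 167542814, plus strand), the repressor first linked to loss of E-cadherin, was at 4.39, 4.17 and 4.65 FPKM in the control libraries and at 7.94, 7.99 and 8.94 FPKM on day 1. All day 1 values were above all control values, and the fit gave 1.90-fold (95% interval 1.72 to 2.10, adjusted p by limma = 6.49e-07). Its paralog Snai2 (chr 16, 14705852 to 14709395), also called Slug, was at 2.31, 2.7 and 2.80 FPKM in control and at 5.76, 5.57 and 6.39 on day 1. The lowest day 1 library was thus well above the highest control library, and the change of 2.27-fold (1.84 to 2.81, adjusted p = 2.7e-05) was the largest of the 10 genes in the fit. The intervals of Snai1 and Snai2 overlap.

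Both TWIST genes rose on day 1, Twist2 by more. Twist1 (chr 12, 33957671 to 33959831), needed for cranial mesenchyme, was at 8.37, 7.67 and 8.20 FPKM in control and at 12.3, 10.8 and 12.9 on day 1, 1.51-fold higher (1.34 to 1.71, adjusted p = 8.83e-05). Twist2 (chr 1, 91801461 to 91848034), known from dermal mesenchyme, was at 1.48, 1.31 and 1.57 FPKM in control and at 3.10, 3.01 and 3.81 on day 1. Neither gene overlapped between the groups, and Twist2 was 2.23-fold higher (1.87 to 2.66, adjusted p = 8.50e-06). An annotated antisense gene, Gm29100, overlaps an exon of Twist2 by 1468 bases, more than the 1335 bases behind the FPKM of Twist2. Not all of that overlap was thus counted, and the sources used here do not state how counting treated strand.

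Prrx1 and the RUNX genes rose as well. Prrx1 (chr 1, 163245119 to 163315145) was at 10.0, 10.4 and 10.1 FPKM in control and at 15.5, 16.7 and 16.3 on day 1, a change of 1.62-fold (1.52 to 1.72) that had the smallest adjusted p of the 10 genes (1.66e-07). Runx1 (chr 16, 92601466 to 92826074) was at 3.11, 2.63 and 2.90 FPKM in control and at 5.03, 5.34 and 5.52 on day 1, 1.85-fold higher (1.65 to 2.08, adjusted p = 2.83e-06). Runx2 (chr 17, 44495987 to 44814797) was at 2.00, 1.86 and 2.21 FPKM in control and at 2.71, 2.74 and 2.94 on day 1. That is 1.40-fold (1.21 to 1.61, adjusted p = 0.00107), the smallest rise among the 7, again without overlap. Antisense genes overlap exons of Runx1 (Gm26626, 106 bases) and of Runx2 (Runx2os1, 519 bases), so their reads may include antisense RNA.

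The ZEB genes, which stand beside SNAIL in most schemes of EMT, did not pass the test on day 1. Zeb1 (chr 18, 5591327 to 5775468) was at 23.2, 23.5 and 23.3 FPKM in control and at 24.0, 23.6 and 22.7 on day 1, a fitted ratio of 1.03 with an interval of 0.978 to 1.08 (adjusted p = 0.325). Zeb2 (chr 2, 44983512 to 45117442) was at 8.38, 8.35 and 7.99 FPKM in control and at 7.99, 8.31 and 8.13 on day 1, a ratio of 1.01 (0.942 to 1.08, adjusted p = 0.790). Both genes overlapped between the groups and had over 2000 reads in each library, and the upper ends of their intervals are below the lower ends for all 7 genes that rose. Zeb2 shares 181 bases of an exon with the antisense gene Zeb2os and Zeb1 shares 198 bases with Gm10125.

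Foxc1 (chr 13, 31806646 to 31810635) moved the other way. It was at 24.3, 24.5 and 27.1 FPKM in control and at 21.7, 22.2 and 22.5 on day 1, all below control, 0.896-fold (0.827 to 0.970, adjusted p = 0.0210). This call is the one among the 8 of day 1 that rests on single libraries: it was lost on leaving out control replicate 3 (adjusted p = 0.0826), day 1 replicate 1 (0.0677) or day 1 replicate 2 (0.0569), nor with no filter on low genes (0.0515). The 7 rises passed in each of 19 alternative fits, with log2 fold changes of 0.54 to 0.68 for Twist1, 0.83 to 1.27 for Twist2 and 0.35 to 0.59 for Runx2.

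**Figure D2:**
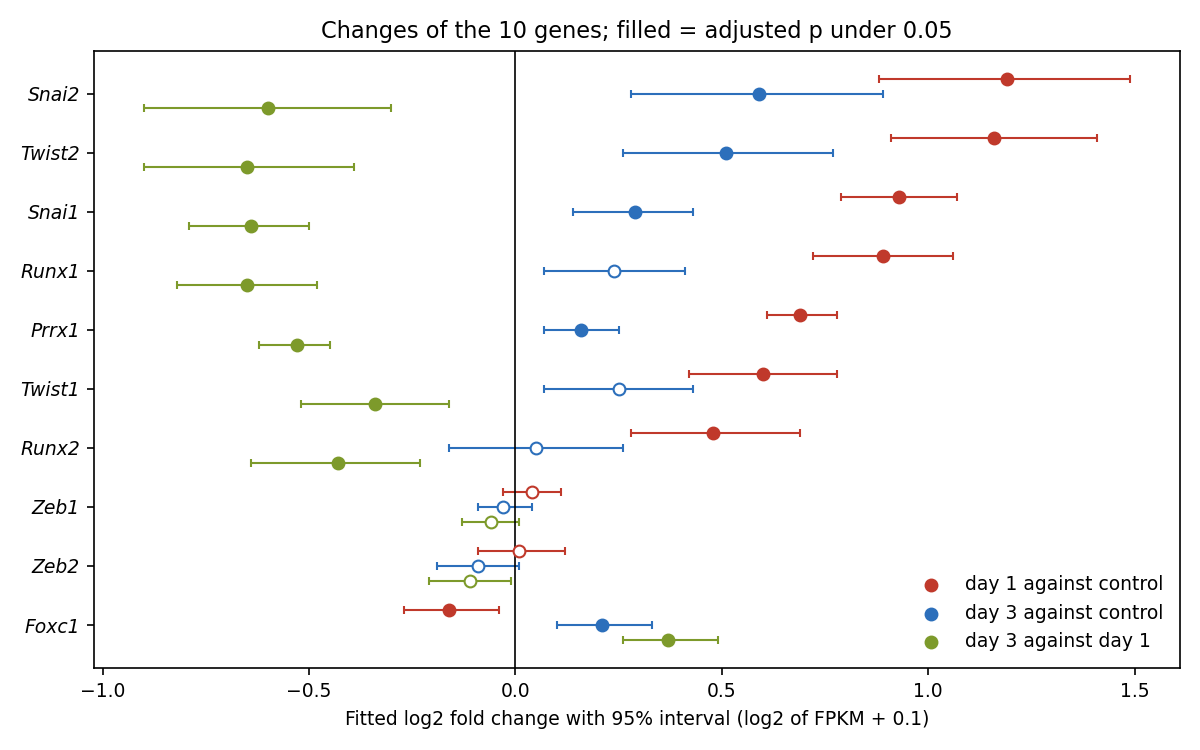
Fitted log2 fold change (horizontal axis, log2 of FPKM + 0.1) with its 95% interval for the 10 genes in the 3 comparisons, which share libraries in pairs; filled points passed at an adjusted p under 0.05. Snai2 and Twist2 have the largest day 1 changes (1.19 and 1.16), Zeb1 and Zeb2 lie near 0, and Foxc1 is at -0.16 on day 1 and 0.21 on day 3.

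By day 3 the 7 genes had moved back toward control, and part of the difference was still called. Against control, 5 of the 10 genes were called higher (Twist2, Snai1, Snai2, Prrx1 and Foxc1) and none lower, beside 7.37% of all tested genes called higher and 6.45% lower. The groups were apart for 7 of the 10 genes, against 30.3% of all tested genes. The count of 5 became 3 on leaving out control replicate 1, 2 on leaving out control replicate 2, 3 on leaving out day 3 replicate 1 and 0 on leaving out day 3 replicate 3, so no day 3 call held in all 9 fits without 1 library. With limma-voom on the recovered reads it was 7, adding Twist1 and Runx1.

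In FPKM, Snai2, Twist1 and Twist2 had the larger remainders of the day 1 difference on day 3. They were 41.4% for Snai2 (30.8% to 56.6% without 1 library), 37.7% for Twist1 (25% to 47.5%) and 34.6% for Twist2 (28.5% to 40.0%), ranges that overlap. Snai2 was at 4.27, 2.97 and 4.68 FPKM on day 3, with replicate 2 close to the control libraries (2.31 to 2.80 FPKM) and the other two well above, a fitted 1.5-fold over control (1.22 to 1.85, limma adjusted p = 0.0185, range 0.000879 to 0.0721 without 1 library). Twist2 was at 1.94, 2.02 and 2.32 FPKM, all above control, 1.43-fold (1.2 to 1.70, adjusted p = 0.0149, range 0.00829 to 0.0606), with 34.6% of its day 1 difference left. Snai1 was at 5.42, 5.01 and 5.57 FPKM, again all above control, 1.22-fold (1.1 to 1.35, adjusted p = 0.0154, range 0.00811 to 0.0611), with 24.0% left.

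Prrx1 was at 11.4, 10.7 and 11.7 FPKM on day 3, 1.12-fold above control (1.05 to 1.19, adjusted p = 0.0237, range 0.0173 to 0.0915), with 18.1% of the day 1 difference left, and without rescaling between libraries it did not pass (adjusted p = 0.0594). Twist1 (8.80, 9.33 and 10.6 FPKM) and Runx1 (3.29, 3.24 and 3.61 FPKM) lay above all control libraries too, at 1.19-fold and 1.18-fold, but did not pass (adjusted p = 0.0642 and 0.0608), and Runx1 had 20.8% of its day 1 difference left. With the replicate number as a block Twist1 passed (adjusted p = 0.0370). Runx2 was back among the control values, at 1.87, 2.07 and 2.27 FPKM (1.03-fold, 0.896 to 1.19, adjusted p = 0.789). Zeb1 was at 23.6, 21.6 and 22.9 FPKM and Zeb2 at 8.12, 7.21 and 7.62 FPKM, overlapping with control (adjusted p = 0.664 and 0.223).

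Foxc1 was above control on day 3, after being below it on day 1. Its libraries were at 27.9, 27.6 and 31.6 FPKM, just clear of the highest control library at 27.1, and the change was 1.16-fold (1.07 to 1.25, adjusted p = 0.0225, range 0.0160 to 0.0793 without 1 library). The call was lost on leaving out any one of control replicates 1 and 2 and day 3 replicate 3.

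The difference between the days was tested directly. From day 1 to day 3, 7 of the 10 genes were lower (28.4% of all tested genes) and 1 was higher (27.9%). The groups were apart for 8 of 10, against 61.8% of all tested genes. The genes that fell were the 7 that had risen: Runx1 to 0.638-fold (0.567 to 0.717, adjusted p = 4.07e-05), Twist2 to 0.639-fold, Snai1 to 0.641-fold, Snai2 to 0.660-fold, Prrx1 to 0.690-fold, Runx2 to 0.740-fold and Twist1 to 0.789-fold (0.696 to 0.893, adjusted p = 0.00433). Foxc1 was 1.29-fold higher on day 3 than on day 1 (1.19 to 1.40, adjusted p = 0.000144). Zeb1 (0.958-fold, adjusted p = 0.114) and Zeb2 (0.929-fold, adjusted p = 0.0683) did not pass, and Zeb2 was called lower with limma-voom (adjusted p = 0.0205) and without day 3 replicate 1 (0.0249).

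Within each pair of paralogs, the ratio of the FPKM does not depend on the scaling between libraries. The Twist1 to Twist2 ratio was 5.58 ± 0.326 in control, 3.65 ± 0.302 on day 1 and 4.57 ± 0.0369 on day 3 (n = 3), with no overlap between any of the groups. The Runx1 to Runx2 ratio went from 1.43 ± 0.123 in control to 1.89 ± 0.0495 on day 1 and 1.64 ± 0.107 on day 3, also apart. The Snai1 to Snai2 ratio was 1.70 ± 0.183 in control, 1.40 ± 0.0289 on day 1 and 1.38 ± 0.267 on day 3, apart only between control and day 1. The Zeb1 to Zeb2 ratio was 2.83 ± 0.0785, 2.88 ± 0.110 and 2.97 ± 0.0528, overlapping throughout. By the exact two-sided permutation test each of the 7 separated comparisons reached p = 0.1, the smallest that 3 against 3 libraries can give, and 0.171 adjusted over 12 tests, so none can pass. Exact runs of 50 bases shared by the annotated transcripts of a pair numbered 0 for all 4 pairs.

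**Figure D3:**
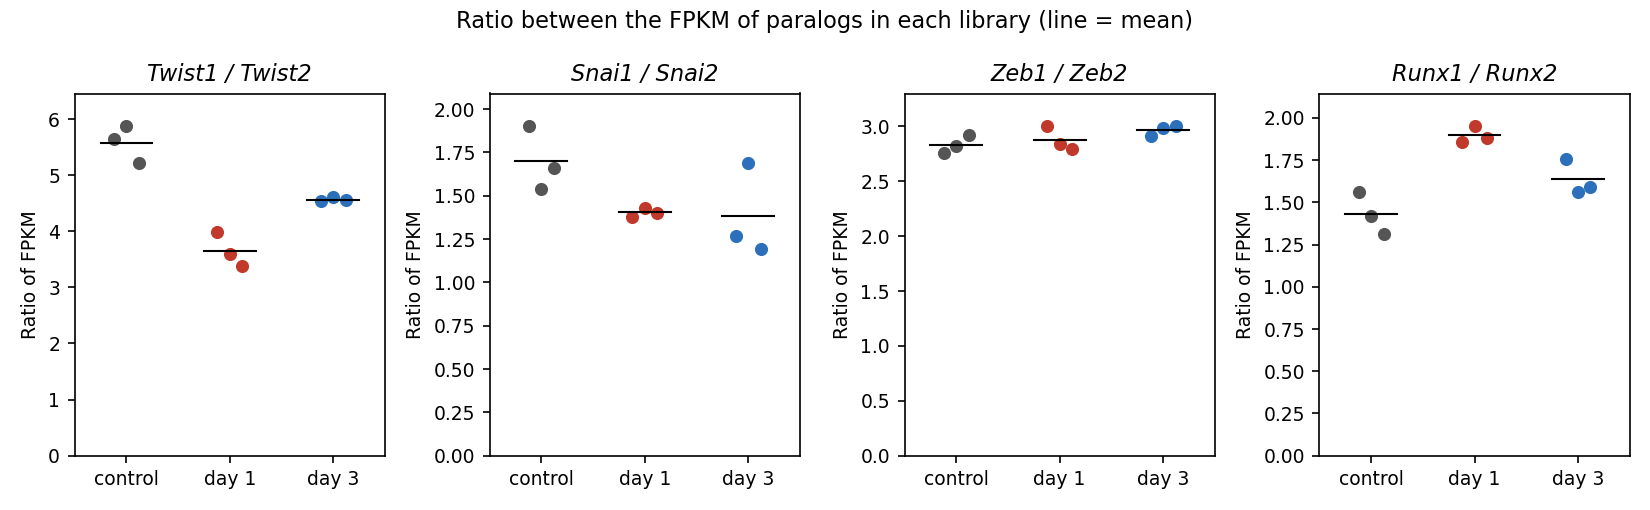
Ratio of the FPKM of paralogs (vertical axes, starting at 0) in each library, with the group mean as a line. Twist1 to Twist2 falls from 5.58 to 3.65 on day 1 and Runx1 to Runx2 rises from 1.43 to 1.89, while Zeb1 to Zeb2 stays between 2.83 and 2.97 in mean.

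Closely related genes outside the 10 were mostly low. Of 8 listed paralogs, 3 passed the filter, and 2 of these rose on day 1 (4 rose with a filter of 0.1 FPKM or none). Prrx2, the paralog of Prrx1, went from 8.05 ± 1.07 to 16.6 ± 1.60 FPKM (2.10-fold, adjusted p = 4.03e-06). Scx, a TWIST relative known from tendon, went from 2.99 ± 0.625 to 7.39 ± 0.648 FPKM (2.5-fold, adjusted p = 7.44e-06). Foxc2 was at 5.32 ± 0.400 in control and 5.08 ± 0.166 FPKM on day 1 (adjusted p = 0.782). Of 40 other mesenchymal and neural crest factors, 25 passed the filter, of which 15 were called higher and 3 lower on day 1, with a median log2 fold change of 0.34. The shares over all tested genes, 31.1% higher and 31.1% lower, stand beside this and each later list count of day 1. Hmga2, a chromatin factor of fetal tissue, rose 3.36-fold from 2.46 ± 0.0235 to 8.34 ± 1.05 FPKM. Foxf2, a forkhead factor of pericytes, rose 3.33-fold from 1.78 ± 0.302 FPKM. Lef1, a Wnt effector, was at 0.767 ± 0.0474 FPKM in control, 2.54 ± 0.0508 on day 1 and 1.02 ± 0.168 on day 3; it passed the filter through its day 1 level, so its call, 1 of the 15, is no support. Sox9, which astrocytes also express, fell 1.35-fold from 83.6 ± 1.78 FPKM, and Tcf7l2 and Osr1 fell 1.14-fold and 1.13-fold. On day 3, 11 of the 25 were called higher than control and 2 lower, beside 7.37% and 6.45% of all tested genes, but leaving out control replicate 1 gave 7 higher, control replicate 2 gave 5, day 3 replicate 1 gave 6, and day 3 replicate 3 gave 5.

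The binding partners of TWIST went in both directions on day 1. Of the 7 E protein and ID genes, 5 rose and 2 fell. Id2 rose 1.40-fold, from 101 ± 1.60 to 138 ± 1.36 FPKM (adjusted p = 6.68e-08), Id1 rose 1.24-fold, and Tcf12, an E protein, rose 1.18-fold. The E protein gene Tcf3 fell 1.13-fold and Id4 fell 1.12-fold, the latter not without day 1 replicate 3 (adjusted p = 0.0518). Cbfb, the common partner subunit of RUNX proteins, rose 1.35-fold from 43.9 ± 1.15 to 58.1 ± 1.14 FPKM (adjusted p = 2.78e-07). Of 7 tested RUNX partners 2 rose and 4 fell, the Groucho-type corepressor gene Tle5 by 1.19-fold, and the 4 became 2 on leaving out control replicate 3 or day 1 replicate 3.

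The corepressors that SNAIL and ZEB proteins recruit were called about as often as all tested genes. Of 13 tested, 4 rose and 4 fell on day 1 (median log2 fold change -0.02), close to the 31.1% each way over all tested genes, among them Rcor1 (1.21-fold higher), Hdac2 and Ezh2 (both 1.17-fold higher) and Ajuba (1.25-fold lower). Genes for enzymes that control the stability of SNAIL and TWIST proteins numbered 3 of 13 higher and 4 lower, also near that share. Pak1, a kinase that phosphorylates SNAIL, rose 1.41-fold, and the ubiquitin ligase gene Fbxl14 fell 1.31-fold from 8.37 ± 0.494 to 6.20 ± 0.0536 FPKM. Protein levels were not measured.

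Genes of TGF-beta signalling and the related BMP receptors, a textbook inducer of SNAIL and TWIST genes, rose in 11 of 15 on day 1 and none fell (median log2 fold change 0.38; with quantile normalization 1 was lower). The ligand gene Tgfb3 rose 1.76-fold from 20.4 ± 0.757 to 35.2 ± 1.27 FPKM (adjusted p = 1.63e-08), Tgfb1 rose 1.69-fold and the feedback gene Skil rose 1.56-fold. On day 3, 4 of the 15 were higher and 1, Tgfb2, was lower (1.13-fold, adjusted p = 0.0154, not without control replicate 2, 0.0561). The receptor gene Tgfbr2 was 1.18-fold higher on day 3, at 20.5 ± 0.957 FPKM against 17.5 ± 0.198 in control.

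Mesenchymal genes commonly read out in EMT rose in 23 of 26 tested on day 1, and 2 fell (median log2 fold change 0.70). The matrix gene Tnc rose 3.61-fold and the fibronectin receptor subunit gene Itga5 2.89-fold. The rises of Vim and of the N-cadherin gene Cdh2, chosen here after their values were seen, were small, 1.11-fold and 1.09-fold. Vim lost its call with no filter (adjusted p = 0.0628) and Cdh2 with quantile normalization (0.894). Pdgfra, which is also a marker of oligodendrocyte precursors, fell 2.86-fold. Akt2 fell 1.05-fold, a call lost on leaving out any one of control replicates 1 and 2 and day 1 replicates 1 and 3 (adjusted p 0.0571 to 0.110).

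The textbook epithelial targets were mostly too low to test. Of 28 listed genes 27 were in the table and 9 passed the filter, of which 2 rose and 2 fell on day 1. With a lower filter of 0.1 FPKM 8 fell, while the number that rose stayed within 1.5 times its value. Lsr, of tricellular junctions, fell 1.96-fold from 2.5 ± 0.205 to 1.21 ± 0.236 FPKM (adjusted p = 0.000275). Pkp2, of desmosomes, rose 1.17-fold. The other that was called higher, Krt19, lost its call on leaving out any one of control replicates 1 and 2 (adjusted p = 0.0639 and 0.0648) and day 1 replicates 1 and 3 (0.0693 and 0.0563), which left 1 of the list higher in 3 of these 4 fits. Of 15 epithelial transcription and splicing factors 1, Klf5, passed the filter, and its change on day 1 was not called (adjusted p = 0.0652), but it was called lower with the replicate block (0.0249), without rescaling (0.0393) and on leaving out day 1 replicate 1 (0.0253). Of 15 skeletal genes known as RUNX2 targets, 3 passed the filter. Tnfrsf11b, the osteoprotegerin gene, rose 2.29-fold on day 1 from 4.40 ± 0.419 FPKM. Alpl, a phosphatase of mineralizing cells, was at 0.636 ± 0.172 FPKM in control, 1.93 ± 0.246 on day 1 and 0.705 ± 0.129 on day 3. It passed the filter through its day 1 level, and not on leaving out day 1 replicate 2 or 3, so its call is no support. With no filter 5 of the 15 were called higher and 1 lower. Spp1 was at 188 ± 19.9 in control and 163 ± 8.90 FPKM on day 1 (adjusted p = 0.178), and was called lower with the replicate block (0.0253) and with quantile normalization (0.0303).

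**Figure D4:**
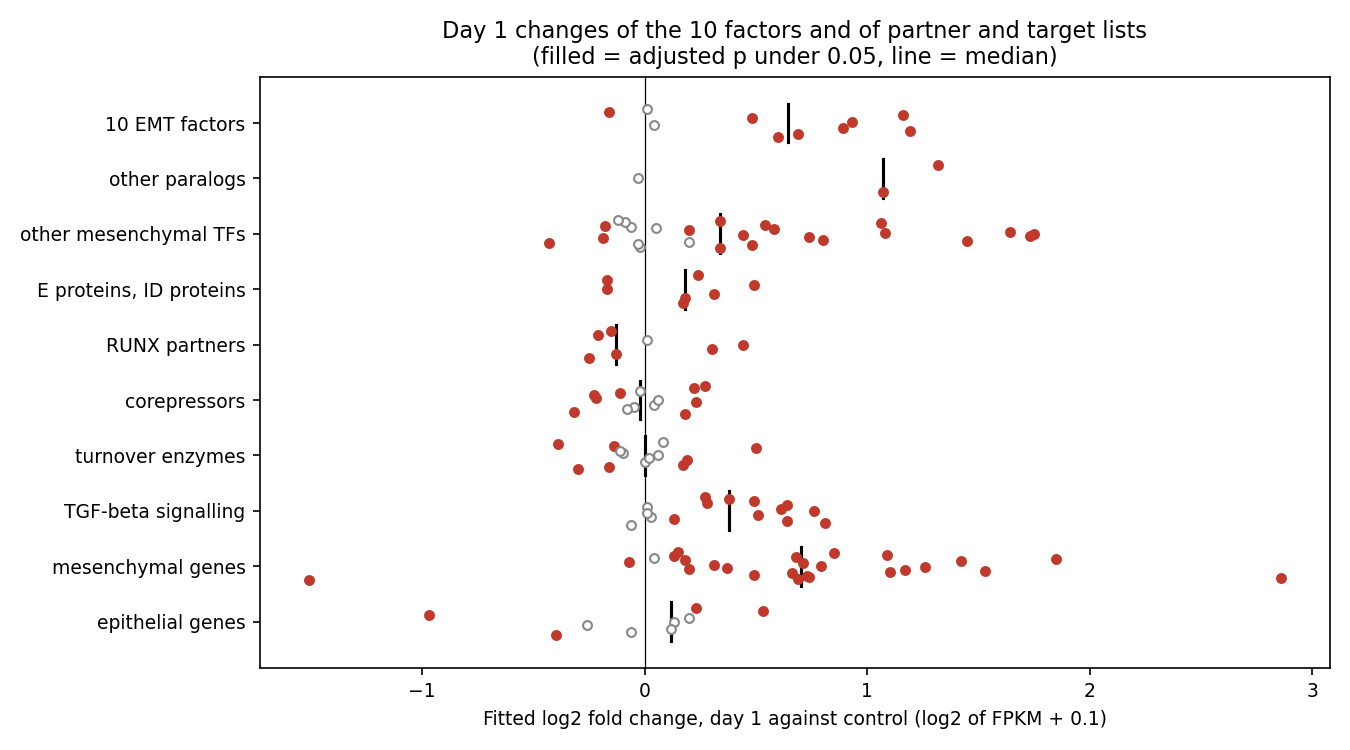
Fitted log2 fold change on day 1 against control (horizontal axis) of each tested gene of the 10 factors and of 9 companion lists; filled points passed at an adjusted p under 0.05 and the line is the list median. The medians are 0.65 for the 10 factors, 0.70 for the mesenchymal genes, 0.38 for TGF-beta signalling and -0.02 for the corepressors.

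Genes outside the 10 with the most similar course were found by the root mean square difference of the log2 values, each centred on its own mean over the 9 libraries. Snai1 was nearest to Esd, an esterase gene (difference 0.0375), and Dock5 (0.0427), against a spread of 0.395 for Snai1 itself. Prrx1 was nearest to Pik3r3 (0.0245) and the cyclin gene Ccnd2 (0.0326), and Runx1 to Gpx7 (0.0541) and Adam19 (0.0573). For Twist1 the nearest were Thyn1 (0.0643) and P4ha2 (0.0668), for Twist2 Anxa1 (0.0886) and Pmepa1 (0.0912), for Runx2 Cmtm7 (0.0584) and Rcn3 (0.0600), and for Snai2, the most variable, Spock3 (0.105) and Itga8 (0.112). Foxc1 was nearest to Osr1 (0.0502), itself a mesenchymal factor of the list above, and to Arhgef33 (0.0523). Zeb1 was nearest to Nsun2 (0.0167) and Zeb2 to Wdr77 (0.0315), genes that vary little. Among the 10 the closest pairs were Zeb1 and Zeb2 (0.0435) and Snai1 and Runx1 (0.0624). The spreads of Zeb1 and Zeb2 themselves were only 0.0374 and 0.0634, so their small difference does not show a shared course.

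Markers of other cell types that express some of the 10 genes moved over the same groups. All 12 microglia markers, which bear on Runx1 and Zeb2, fell on day 1, with a summed level of 280 to 303 FPKM in control, 96.7 to 108 on day 1 and 230 to 295 on day 3. C1qa, for example, went from 60.5 ± 4.89 to 19.1 ± 1.13 FPKM. Of 10 pericyte and smooth muscle markers, which bear on Foxc1 and Twist1, 5 passed the filter, of which 4 rose and none fell. The sum of the list went from 43.8 to 44.5 FPKM to 72.9 to 75.9, led by Pdgfrb (19.3 ± 0.479 to 31.5 ± 0.738 FPKM). Among those under the filter were Abcc9, Kcnj8 and Higd1b, with Higd1b at 0 in all control libraries. Fibroblast and meningeal markers rose in 3 and fell in 4 of 8 tested on day 1. Their sum went from 573 to 611 FPKM in control to 1085 to 1169 on day 1, which is mostly Col1a1, whereas Igf2 fell from 112 ± 0.348 to 46.7 ± 4.07 FPKM. Oligodendrocyte lineage markers fell in 9 of 10 tested and 1 rose, and ependymal and choroid markers fell in 4 of 5. Of 9 endothelial markers 1, Cdh5, passed the filter (11.1 ± 0.338 FPKM in control, 10.9 ± 0.390 on day 1). All 3 neuron markers tested rose (1 without rescaling or with quantile normalization). The neuron list summed to 102 to 103 FPKM in control and 109 to 112 on day 1. With a filter of 0.1 FPKM or none, 2 neuron markers were called lower on day 1. Of the endothelial markers, 1 was then called higher and 2 lower with the filter of 0.1 FPKM, and 2 and 2 with none. Astrocyte markers fell in 6 and rose in 2 of 10. Pdgfra, Pdgfrb and Col1a1 stand in these lists and among the mesenchymal genes above, and Sox9 stands in the astrocyte list and among the other mesenchymal factors. Cspg4 stands in both the pericyte and the oligodendrocyte list, and Pdgfra in both the fibroblast and the oligodendrocyte list. The part of these cells in the changes of the 10 genes was not tested.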

How the data were processed

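Polyadenylated RNA of 9 libraries was analysed from one table of FPKM that the authors deposited, one column per library, matched by the column name in each library's description. The submitters' processing notes list STAR 2.7.3a, cutadapt 2.6, FastQC 0.12.1 and DESeq2, and the genome names mm10 and GRCm38, per the labels. Not given in the sources used here are the counting program, annotation and strand setting. Whole reads were recovered for all 20350 genes above 0 to within 0.01 read, which gave the depth of each library and the gene lengths.

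FPKM were rescaled by median-of-ratios factors of 0.9755 to 1.019 over 12611 genes whose mean reached 1 FPKM, and taken as log2(FPKM + 0.1). A fit in limma 3.58.1 (R 4.3.3) took all libraries, a term for group alone and an intensity trend. Tests were two-sided, with Benjamini-Hochberg adjustment over all genes tested. Levels and group overlaps are given from FPKM as deposited; fitted changes come from log2(FPKM + 0.1), which understates changes of low genes. Replicate libraries differed beyond sampling noise (chi-square per degree of freedom of 1.75 to 4.76).

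The 10 genes, the 11 companion lists and the 8 marker lists were chosen with earlier results of these data known. All 10 genes are named. Of each companion list up to 3 rises and 3 falls per comparison were eligible for naming by size, if called and without overlap between groups, and of each marker list the 2 most abundant. Krt19, Spp1, Foxc2, Klf5, Vim and Cdh2 are named outside this rule, and 2 genes that it would name are not reported here. For likeness, the 2 nearest genes per member were taken. Same-numbered libraries did not deviate together (correlations of -0.079 to 0.111), so the replicate number was used only as an alternative. Other alternatives were the pseudocount, the filter, the libraries fitted, scaling, threshold, limma-voom and each library left out. Sequences are RefSeq windows of GRCm38.p6, overlaps of exons are from GENCODE. Figures were drawn with matplotlib 3.10.9.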

Additional observations from a re-analysis of the deposited data

Results flagged for a closer look

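After hydrogen peroxide, the levels of 8 of the 10 genes differed between the 2 harvest times. This was the direct test of day 3 against day 1 in the fit, in which the shared controls cancel. In that comparison 27.9% of all tested genes were called higher and 28.4% lower. The control group carries no harvest time, so a changing response to the oxidant and time in culture cannot be told apart. The difference of the log2 fold changes (day 3 minus day 1) was -0.65 for Twist2 and Runx1, -0.64 for Snai1, -0.60 for Snai2, -0.53 for Prrx1, -0.43 for Runx2 and -0.34 for Twist1, and it was 0.37 for Foxc1. These are the 7 genes that rose on day 1 and the 1 that fell. Zeb1 (-0.06) and Zeb2 (-0.11) did not pass. With 3 libraries a group, no search for single outlying libraries was made.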

How the results depend on the processing

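The 7 rises of day 1 and the 8 differences between the days were called in each of the 19 alternative fits, and no called value of the 10 genes changed sign. The day 1 fall of Foxc1 was -0.15 with no filter and -0.19 to -0.12 without 1 library, so that the genes lower numbered 0 with no filter, 0 at an adjusted p under 0.01, and 0 to 1 without 1 library. The day 3 calls against control were the least stable. The members higher were 0 at an adjusted p under 0.01 and 0 to 6 without 1 library, beside 411 genes higher and 340 lower in all at 0.01, and 534 to 922 and 468 to 859 without 1 library. Without 1 library the day 3 log2 fold changes were 0.19 to 0.32 for Twist1, 0.44 to 0.57 for Twist2, 0.24 to 0.32 for Snai1, 0.46 to 0.77 for Snai2, 0.14 to 0.19 for Prrx1, 0.18 to 0.31 for Runx1 and 0.16 to 0.26 for Foxc1. Twist1 passed with the replicate block (0.25) and with limma-voom (0.27), and Runx1 with limma-voom (0.27). Without the 2 libraries with the highest share of Rn45s, an alternative chosen after seeing the data, Runx1 passed (0.33) while Twist2 (0.55) and Foxc1 (0.22) did not. Prrx1 did not pass without rescaling (0.14). For day 3 against day 1, Zeb2 passed with limma-voom (-0.11) and was -0.14 to -0.07 without 1 library. The causes were not tested. The replicate block changed no other call of the 10 genes. Without rescaling, 3319 genes were higher and 4348 lower on day 1, in place of 3923 and 3916. Of the companion and marker list counts, 2114 stayed within 1.5 times and 166 did not. Twist2, with 60 to 117 reads a library, is the member that depth limits most.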

Other observations

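Some relatives of the 10 genes lay under the filter of 1 FPKM, so their reads are given as values. Fits with a lower filter or none did include genes of this kind, and some of the counts they gave, not all, stand with the lists above. Snai3, the third SNAIL gene, had 1 to 3 reads in each control library, 13 to 20 on day 1 and 4 to 8 on day 3. Runx3 had 55 to 88, 64 to 84 and 71 to 105 reads. The bone factor gene Sp7, which acts downstream of Runx2, had 0 to 4 reads in control, 7 to 9 on day 1 and 0 to 3 on day 3. Cdh1, the E-cadherin gene that SNAIL and ZEB proteins are known to repress, had 41 to 101 reads in control (0.482 ± 0.240 FPKM, n = 3), 2 to 14 on day 1 (0.0825 ± 0.0545 FPKM) and 49 to 52 on day 3. The keratin gene Krt18 was at 1.25 ± 0.117, 0.554 ± 0.165 and 1.11 ± 0.257 FPKM in control, day 1 and day 3. The desmosome gene Dsp, with 98 to 135 reads in control and 347 to 403 on day 1, went the other way. It was at 0.36 ± 0.0328, 1.56 ± 0.0465 and 0.602 ± 0.0358 FPKM in control, day 1 and day 3. These genes were picked after their values were seen.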
